A study of Mus musculus with 44 samples.

Results

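Bone morphogenetic protein (BMP) genes were followed in fibroblasts of normal mammary glands and mammary tumors. The 9 genes are the ligands Bmp2, Bmp4, Bmp5, Bmp6 and Bmp7 and the secreted antagonists Grem1, Nog, Chrd and Chrdl1. They were taken by symbol from the 55486 genes of the deposited count table, and all 9 passed the filter on low counts that left 16601 genes for testing. Fibroblasts were taken by flow sorting, as cells negative for EpCAM, CD49f, CD31 and CD45, from the gland or tumor of female EN1-Cre;mTmG recipients that carried transplanted mammary tissue. The tumor models and the mTmG line were FVB/n, and for the recipients En1-Cre mice were crossed back to mTmG for 2 generations. En1-Cre switches the mTmG reporter to GFP in the En1 lineage, in control and tumor-bearing recipients alike. Control donor tissue came from WapCre-negative mice, and its recipients gave normal fibroblasts (NFs). WB1P donor tissue was WapCre;Brca1F/F;Trp53F/F, and WB1P-Myc tissue carried Col1a1invCAG-Myc-IRES-Luc in addition. Both models gave cancer-associated fibroblasts (CAFs) from end-stage tumors, except that 2 WB1P-Myc mice (23 and 69) are labelled 8x8, read here as a tumor size. WapCre acts in the mammary epithelium of the donor tissue, the fibroblasts belong to the recipient, and the recipient's own gland was not removed. The ages of the mice at harvest are not given in the sources used here. The sort by CD26 and GFP gave 44 libraries of 13 mice, 3 control, 5 WB1P and 5 WB1P-Myc. Each control label holds a pair of numbers (44/46, 49/52 and 82/83) and was counted as 1 mouse, although it may be a pool of 2 animals. Counts of the libraries of a mouse and CD26 class were summed. This gave 3 CD26- and 3 CD26+ NF sums, 5 CD26- and 4 CD26+ WB1P sums, since mouse 10 gave only CD26- cells, and 5 of each for WB1P-Myc. Some tumor sums hold 1 library and so 1 GFP class. In CD26- cells these are WB1P mouse 10 (GFP-positive) and WB1P-Myc mice 21 and 95 (GFP-negative). In CD26+ cells they are WB1P mouse 12 and WB1P-Myc mice 67 and 95 (GFP-positive). Levels are normalized CPM, counts relative to the sum's total after TMM scaling. Tests are edgeR's quasi-likelihood test over all 6 groups, with the FDR (Benjamini-Hochberg) taken over all genes and a gene called under 0.05. Every fold change is a log2 value with its standard error (SE).

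BMPs are secreted dimers of the TGF-beta superfamily. They bind type I and type II receptor kinases, which phosphorylate SMAD1, SMAD5 and SMAD9, and these enter the nucleus with SMAD4 and switch on targets such as the Id genes. Gremlin 1 (Grem1), noggin (Nog), chordin (Chrd) and chordin-like 1 (Chrdl1) bind BMPs outside the cell and keep them from their receptors. In the mammary gland, BMP signals between stroma and epithelium take part in bud formation, ductal branching and lineage choice.

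On GRCm38, 3 of the genes lie on chromosome 2. Bmp2 spans 133552159 to 133562885 on the plus strand, Bmp7 172868012 to 172940321 on the minus strand and Grem1 113746164 to 113758646 on the minus strand. Bmp5 lies on chromosome 9 (75775364 to 75900310, plus), Nog on chromosome 11 (89300638 to 89302332, minus), Bmp6 on chromosome 13 (38345107 to 38500302, plus), Bmp4 on chromosome 14 (46383520 to 46390669, minus), Chrd on chromosome 16 (20733127 to 20742384, plus) and Chrdl1 on chromosome X (143285674 to 143394262, minus). Exons of Bmp6 overlap those of Txndc5 on the other strand, and exons of Chrd overlap those of Thpo, so that reads could be shared if strand was not used in counting.

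RefSeq promoters (GRCm38.p6) were found for Grem1, Bmp4, Bmp5, Bmp6 and Chrd, 5 of the 9 genes. The 250 bases before the RefSeq start of Grem1 and Bmp5 are printed because these genes had the largest fold changes towards CD26- cells in CAFs among the members. Capitals mark GGCGCC, a palindromic site of BMP-activated SMADs that reads the same on both strands, and it was the only motif searched. The first window is chr2:113758649-113758898 on the minus strand, and the second chr9:75775115-75775364 on the plus strand, both 5′ to 3′.
Grem1: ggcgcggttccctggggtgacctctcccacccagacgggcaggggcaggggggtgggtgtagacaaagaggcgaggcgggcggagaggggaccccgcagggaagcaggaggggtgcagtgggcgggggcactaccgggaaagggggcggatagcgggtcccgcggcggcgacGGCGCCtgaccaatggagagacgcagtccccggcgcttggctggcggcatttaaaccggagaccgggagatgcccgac
Bmp5: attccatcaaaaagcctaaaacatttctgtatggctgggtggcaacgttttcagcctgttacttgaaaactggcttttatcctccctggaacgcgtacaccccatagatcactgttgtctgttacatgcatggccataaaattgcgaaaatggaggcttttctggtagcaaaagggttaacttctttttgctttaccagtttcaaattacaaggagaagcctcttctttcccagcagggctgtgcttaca
The Grem1 window has 1 GGCGCC and a GC content of 72.0%, and the Bmp5 window has none and 42.8%. Chrd also has 1 in its window, while Bmp4 and Bmp6 have none. Of all 32851 RefSeq promoter windows of this length, 9.59% hold the motif.

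Libraries held 5790599 to 15240328 counts, with a median of 12818093. Dpp4, the gene of CD26, had 0.620 to 15.3 CPM in the CD26- sums and 234 to 805 CPM in the CD26+ sums, as the labels have it. The 6 fibroblast markers summed to 19760 CPM or more in every sum, but single markers moved both ways. In CD26- CAFs 3 of the 6 were lower than in NFs in each model, with 2 higher in WB1P and 0 in WB1P-Myc mice. In CD26+ CAFs 2 were higher in each model, with 1 lower in WB1P and 0 in WB1P-Myc mice. The 7 pericyte markers rose in CD26- CAFs of both models (7 of 7 called in each) and summed to 1831 to 9160 CPM there, against 203 to 370 CPM in CD26- NFs and 155 to 393 CPM in all CD26+ sums. In CD26- CAFs the 6 epithelial markers summed to at most 168 CPM and the 6 immune markers to at most 56.4 CPM, while the immune markers reached 228.5 CPM in CD26+ CAFs. Cd3e alone reached 221.5 CPM in WB1P-Myc CD26+ CAFs. Of the 6 immune markers 1 was called higher in CD26+ than CD26- CAFs of each model, and 0 lower. Of the 6 endothelial markers 4 were lower than in NFs in WB1P CD26-, WB1P CD26+ and WB1P-Myc CD26+ CAFs and 2 in WB1P-Myc CD26- CAFs, and 1 was higher in CD26- CAFs of each model. Of the 4 skeletal muscle markers, 4 were lower in WB1P-Myc CD26- CAFs and 1 in each of the other 3 comparisons. These lower markers move with the decrease of Bmp7, and their part in it was not tested. The pericyte values move with the differences of CD26- CAFs from NFs and from CD26+ CAFs given below. Their part in those differences was not tested. Between WB1P-Myc and WB1P CD26- CAFs 0 of the 7 were called, with mean sums of 4626 and 2853 CPM. In sorted bulk samples, a change in the share of cells that express a gene and a change in RNA per cell cannot be told apart.

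**Figure D1:**
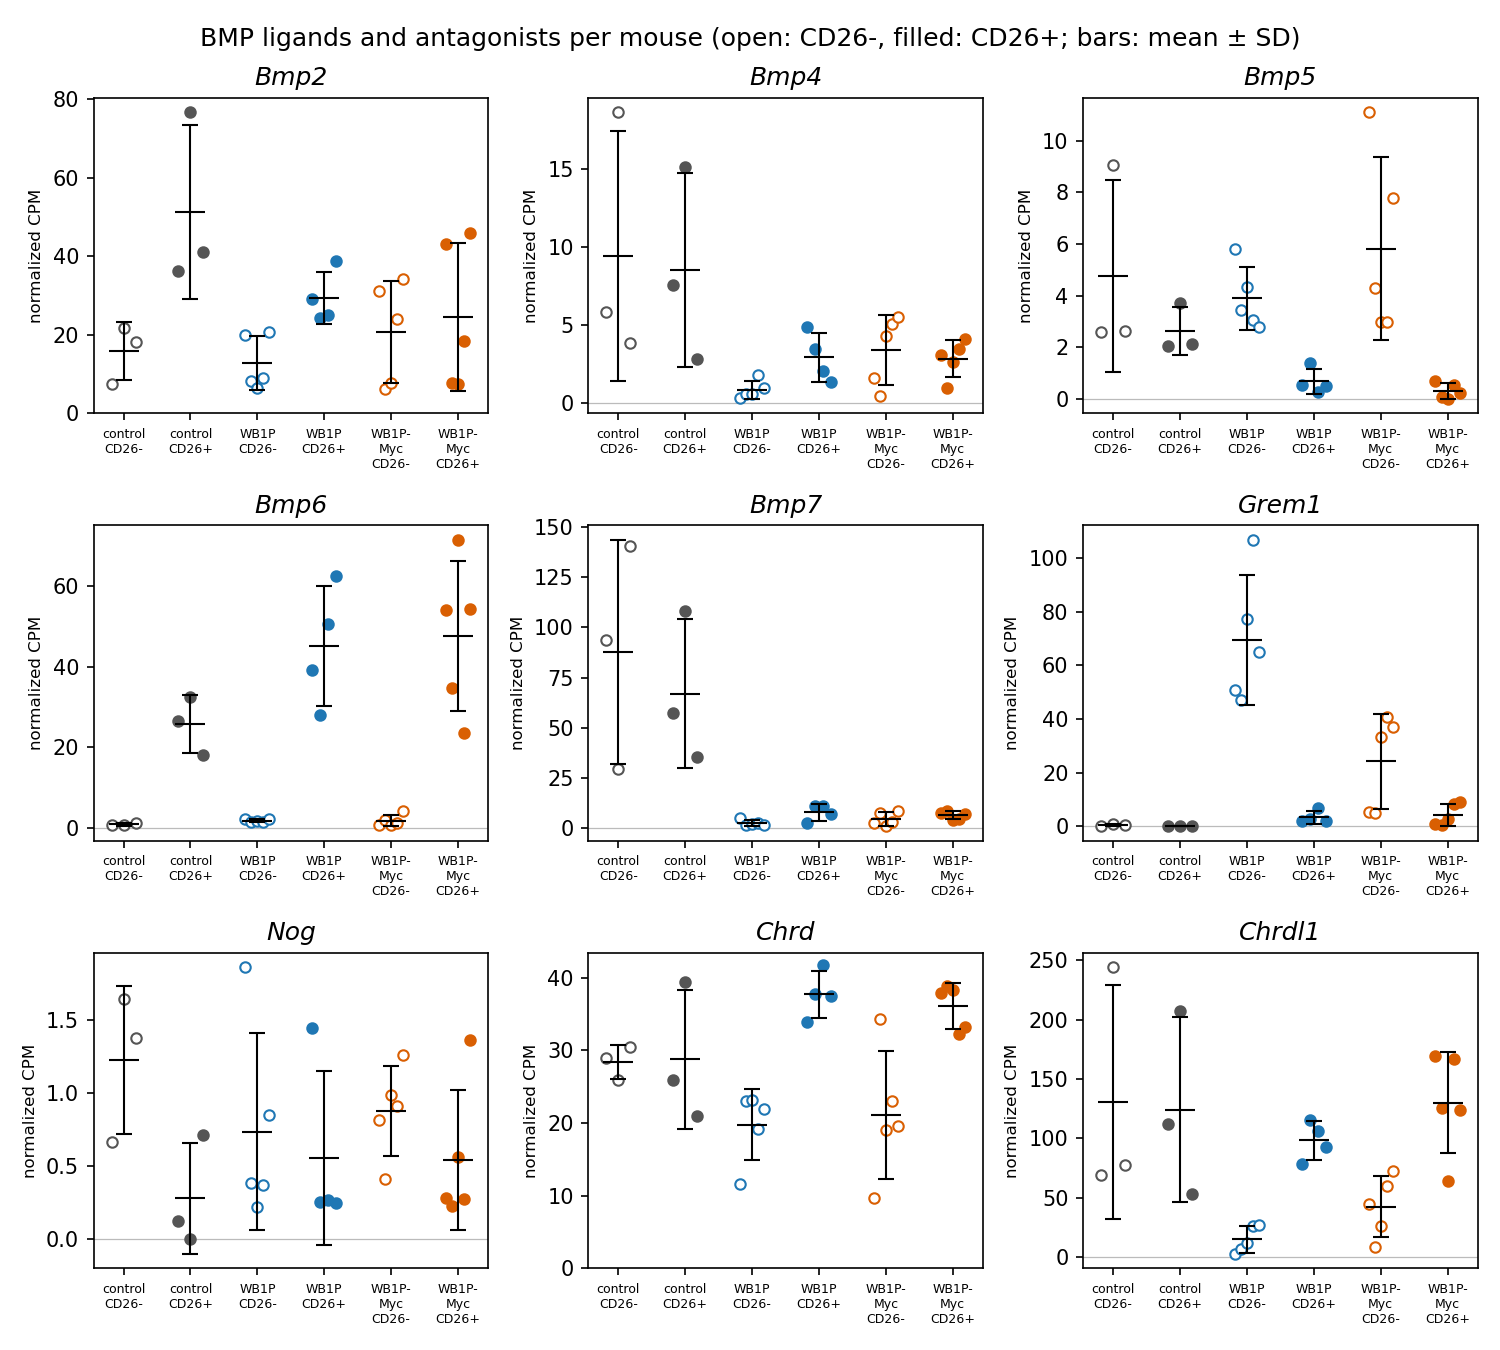
Normalized CPM of the 9 genes per mouse, with open points for CD26- and filled points for CD26+ sums of control, WB1P and WB1P-Myc mice, and bars for mean ± SD; each panel has its own linear axis. Bmp6 separates the CD26 classes in all 3 models, Bmp7 separates NFs from CAFs, and Grem1 is highest in the 5 WB1P CD26- sums (47.2 to 107 CPM).

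The first question was how the 9 genes differ between CAFs and NFs of the same CD26 class. All 4 comparisons shared a pattern in which Grem1 rose and Bmp7 fell, while Bmp4 and Chrdl1 fell in CD26- CAFs and Bmp5 in CD26+ CAFs, in 1 or both models. In CD26- cells, 1 of 9 genes was higher in WB1P CAFs (background 17.6% of all genes tested) and 3 were lower (background 17.8%). In WB1P-Myc CAFs 1 was higher (19.1%) and 2 were lower (17.5%). In CD26+ cells, 1 was higher (17.4%) and 2 were lower (16.1%) in WB1P CAFs, and 1 was higher (17.4%) and 2 were lower (17.3%) in WB1P-Myc CAFs. With 9 genes, counts of 1 to 3 are not far from these shares, so nothing is read from the counts, and the genes and the sizes of their changes are described below. The CAF groups of a CD26 class were compared with the same 3 control sums.

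Bmp7, a ligand known for its roles in kidney and eye development, was the ligand that fell most. In CD26- NFs it had 93.6, 29.2 and 141 CPM in control 44/46, 49/52 and 82/83. In CD26- CAFs it had 4.73, 1.36, 1.58, 2.37 and 1.52 CPM in WB1P mice 10, 12, 14, 35 and 93. All 5 lay below the lowest control, and the fold change was -5.29 (SE 0.66, FDR 3.36e-06, edgeR). The WB1P-Myc CD26- sums had 2.22, 7.43, 0.594, 2.79 and 8.39 CPM in mice 21, 23, 67, 69 and 95, a fold change of -4.37 (SE 0.63, FDR 2.52e-05). In CD26+ NFs Bmp7 had 57.2, 108 and 35.3 CPM, and in the CD26+ CAFs it ranged from 2.17 to 10.8 CPM in WB1P and from 3.96 to 8.38 CPM in WB1P-Myc mice. The CD26+ CAFs were again below every control, with fold changes of -3.09 (SE 0.65, FDR 0.00138) and -3.43 (SE 0.61, FDR 0.000326). All 4 decreases also pass the limit of 2 log2 units that the study used.

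Bmp4, a ligand close to Bmp2 in sequence, fell in WB1P CD26- CAFs. It had 5.83, 18.6 and 3.84 CPM in the CD26- NFs and 0.310, 0.583, 0.614, 1.81 and 0.983 CPM in the WB1P CD26- CAFs. The groups did not overlap, and the fold change was -3.41 (SE 0.69, FDR 0.000609, edgeR). The other 3 comparisons gave -1.47 to -1.58 with FDRs of 0.065 to 0.0878. Each of these was called without control 82/83, with FDRs of 0.0316 to 0.0422, and each was also called with limma-voom on single libraries (adjusted p 0.0109 to 0.0486). Control 49/52 has the highest Bmp4 of both NF groups, and without it the values were -0.87 (FDR 0.393) in WB1P CD26+, -0.49 (FDR 0.618) in WB1P-Myc CD26- and -0.87 (FDR 0.358) in WB1P-Myc CD26+ CAFs. In WB1P CD26- CAFs the value without it was -2.43 (FDR 0.0122).

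Bmp5, a ligand of the Bmp6 and Bmp7 subgroup, was lower in CD26+ CAFs. The CD26+ NFs had 2.06, 3.70 and 2.14 CPM. The WB1P CD26+ CAFs had 0.543, 1.39, 0.272 and 0.498 CPM in mice 12, 14, 35 and 93, and the WB1P-Myc CD26+ CAFs had 0.702, 0.0921, 0, 0.545 and 0.227 CPM in mice 21, 23, 67, 69 and 95. Neither CAF group overlapped the controls. The fold changes were -1.91 (SE 0.67, FDR 0.0328) in WB1P and -2.98 (SE 0.66, FDR 0.00184) in WB1P-Myc mice. The WB1P call was lost without control 44/46 (FDR 0.0551), control 49/52 (0.101) or WB1P mouse 12 (0.0755), 35 (0.0949) or 93 (0.0717). In CD26- cells Bmp5 did not pass the test in either model, with 2.77 to 5.81 CPM in WB1P, 2.97 to 11.1 CPM in WB1P-Myc and 2.58 to 9.06 CPM in control mice.

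Bmp6 and Bmp2 were not called in these comparisons by edgeR with all mice. Bmp6, a ligand known for setting hepcidin levels in the liver, had fold changes from 0.81 to 1.00 over the 4 comparisons, with FDRs of 0.0887 to 0.133. In WB1P CAFs it was called in CD26- cells with only the groups compared in the fit (FDR 0.0371) and in CD26+ cells with limma-voom (adjusted p 0.0497). In WB1P-Myc CAFs it was called without mouse 67 in CD26- cells (FDR 0.0495) and without mouse 69 in CD26+ cells (FDR 0.0475). Bmp2, a ligand known for inducing bone, was at 36.2 to 76.8 CPM in CD26+ NFs, 24.3 to 38.8 CPM in WB1P and 7.57 to 45.9 CPM in WB1P-Myc CD26+ CAFs. These ranges overlap, and the lowest FDR for Bmp2 over the 4 comparisons was 0.161, with limma-voom calling it lower in WB1P-Myc CD26+ CAFs (adjusted p 0.00602).

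Grem1, which binds Bmp2, Bmp4 and Bmp7, had the largest increase of the 9 genes. CD26- NFs had 0.265, 0.840 and 0.362 CPM, from 8 to 23 counts. WB1P CD26- CAFs had 50.8, 47.2, 77.4, 107 and 65.1 CPM in mice 10, 12, 14, 35 and 93, and WB1P-Myc CD26- CAFs had 5.25, 4.94, 33.3, 40.8 and 37.1 CPM in mice 21, 23, 67, 69 and 95. Every CAF sum lay above every NF sum. The fold changes were 7.14 (SE 1.06, FDR 2.46e-05) and 5.63 (SE 1.00, FDR 0.000204). In the WB1P-Myc mice the values fell in a low pair (21 and 23) and a high trio, and 23 is labelled 8x8, as is 69 in the trio. In CD26+ NFs Grem1 had 0 to 3 counts per sum, at the floor of 3 counts. The CD26+ CAFs had 1.99, 2.85, 6.96 and 1.89 CPM in the WB1P mice and 0.889, 0.598, 2.69, 8.18 and 9.07 CPM in the WB1P-Myc mice. Summed over mice, 306 counts in WB1P and 370 in WB1P-Myc CD26+ CAFs stood against 4 in NFs, ratios of 80.4 (exact 95% interval 31.1 to 297) and 82.8 (32.1 to 305) after scaling to depth. These intervals cover counting error only. The edgeR FDRs were 0.00177 and 0.00112, and the first was 0.0532 when single libraries were fitted with limma-voom.

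Chrdl1, a chordin-like antagonist, fell in CD26- CAFs of both models, and in WB1P-Myc mice the call rested on control 49/52. It had 69.1, 244 and 77.9 CPM in the CD26- NFs of control 44/46, 49/52 and 82/83. The WB1P CD26- CAFs had 2.79, 6.65, 12.1, 26.5 and 27.5 CPM, all below the controls, with a fold change of -3.10 (SE 0.62, FDR 0.000545). The WB1P-Myc CD26- CAFs had 44.9, 8.90, 26.5, 59.7 and 73.0 CPM, which reach into the control range. Their fold change of -1.62 (SE 0.60, FDR 0.0399) became -0.78 (FDR 0.367) without control 49/52. The call was also lost without WB1P-Myc mouse 21 (FDR 0.064), 23 (0.0829) or 67 (0.075), without both mice labelled 8x8 (0.124) and with only the groups compared in the fit (0.076). The 2.79 CPM of WB1P mouse 10 come from a GFP-positive library alone. The 44.9 and 73.0 CPM of WB1P-Myc mice 21 and 95 come from GFP-negative libraries alone. The part of the GFP class in these Chrdl1 values was not tested. In CD26+ cells Chrdl1 was at 53.0 to 207 CPM in NFs, 78.4 to 116 CPM in WB1P and 64.3 to 169.6 CPM in WB1P-Myc CAFs, with FDRs of 0.718 and 0.944. Control 49/52 was also the highest of the CD26- NF sums for Bmp2, Bmp4, Bmp5, Grem1 and Nog and the lowest for Bmp6, Bmp7 and Chrd.

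Chrd and Nog were not called in any of the 4 comparisons. Chrd, the vertebrate counterpart of Drosophila Sog, had fold changes of -0.52 and -0.42 in CD26- and 0.39 and 0.33 in CD26+ cells. Without WB1P-Myc mouse 23 the WB1P-Myc CD26- value was -0.68 and was called (FDR 0.0444), as it was without both mice labelled 8x8 (FDR 0.0314). Nog was near the limit of detection, with 0 to 45 counts per sum and at most 1.86 CPM.

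**Figure D2:**
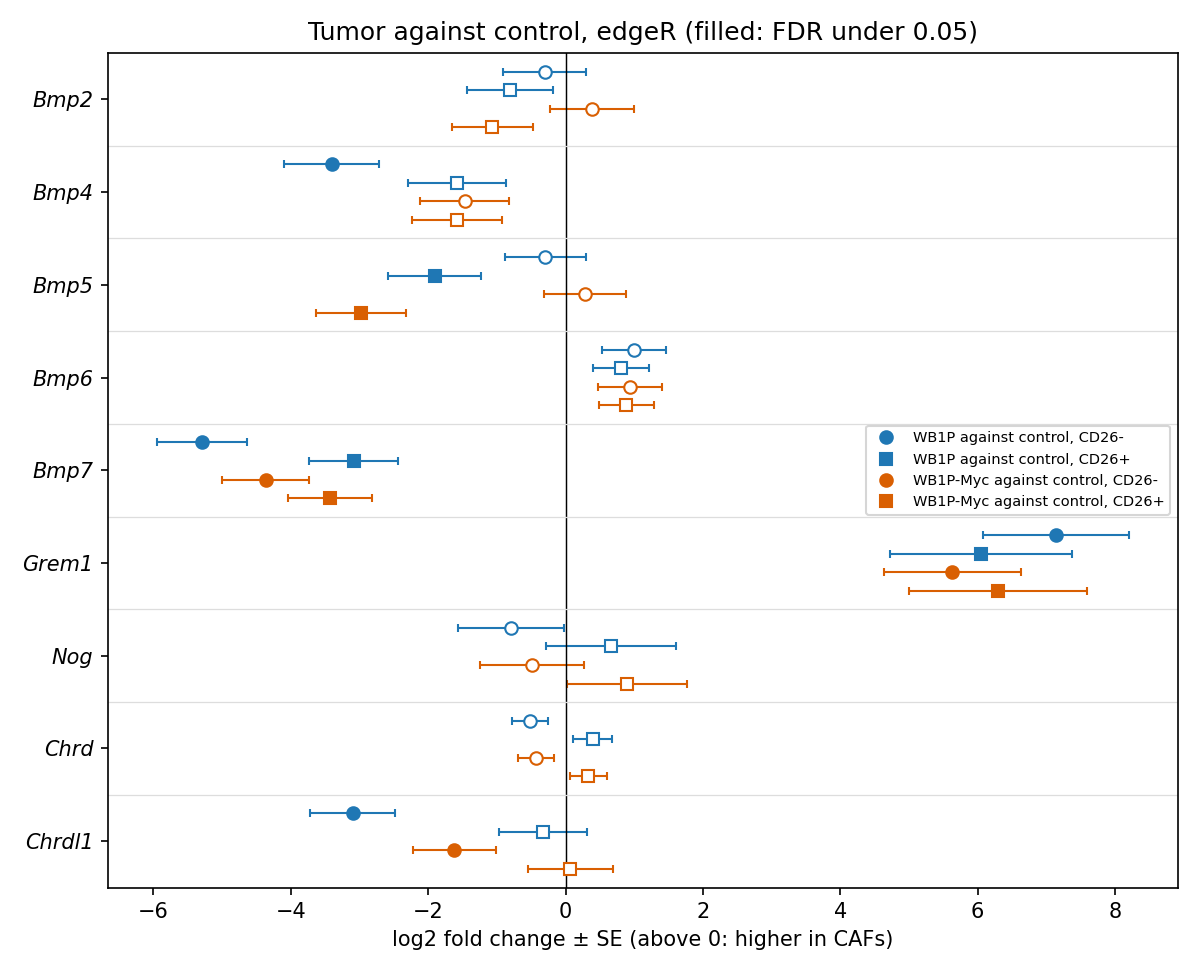
Log2 fold changes with SE (x axis) of the 9 genes (y axis) for WB1P and WB1P-Myc CAFs against NFs of the same CD26 class, filled where the edgeR FDR is under 0.05. Grem1 lies to the right and Bmp7 to the left of 0 in all 4 comparisons; the 2 CD26+ values of Grem1 rest on 4 counts in NFs and depend on the prior count of the fit.

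Levels of different genes were set side by side per kilobase of exon (CPM per kb, exons merged over transcripts). In CD26- NFs Bmp7 led the 5 ligands with 64.2% ± 29.5 (SD, n = 3) of their summed CPM per kb, with a lowest share of 30.2% in control 49/52, where Bmp4 held more (34.3%). In CD26- CAFs its share was 9.47% ± 3.26 (n = 5) in WB1P and 12.0% ± 13.0 (n = 5) in WB1P-Myc mice, and Bmp2 led with 57.2% ± 11.3 and 52.1% ± 14.5. The summed ligands were at 24.1 to 42.8 CPM per kb in CD26- NFs, 4.02 to 8.92 in WB1P and 5.18 to 17.2 in WB1P-Myc CD26- CAFs. In these CD26- cells the tumor ranges lay below the controls in both models. In CD26+ cells the summed ligands were at 26.8 to 64.5 CPM per kb in NFs, 18.6 to 29.3 in WB1P and 13.6 to 30.4 in WB1P-Myc CAFs. Those ranges overlapped. In CD26+ NFs Bmp7 held 38.4% ± 4.84 (n = 3), Bmp2 35.2% ± 7.17 and Bmp6 16.6% ± 3.31, with Bmp2 above Bmp7 in control 82/83 (43.0% against 32.8%). Bmp6 held 48.9% ± 7.65 (n = 4) in WB1P and 56.5% ± 16.3 (n = 5) in WB1P-Myc CAFs.

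The 4 antagonists among the 9 genes differed in make-up between the groups, while their sums had overlapping ranges. Chrdl1 led in CD26- NFs with 73.6% ± 11.8 (n = 3) of the summed antagonist CPM per kb, and Grem1 held 0.471% ± 0.0464. In WB1P CD26- CAFs Grem1 led with 73.9% ± 5.60 (n = 5), from 66.0% to 78.5%, and Chrdl1 held 9.02% ± 5.62. WB1P-Myc CD26- CAFs were mixed, with 31.9% ± 17.4 Grem1, 38.5% ± 19.6 Chrdl1 and 26.2% ± 22.7 Chrd. In CD26+ cells Chrdl1 led in NFs (76.7% ± 8.09), WB1P CAFs (66.8% ± 3.55) and WB1P-Myc CAFs (71.4% ± 8.85). The summed antagonists ranged from 15.3 to 41.4 CPM per kb in CD26- NFs, 15.6 to 32.9 in WB1P and 8.22 to 23.6 in WB1P-Myc CD26- CAFs. These shares are descriptions without a test. Antagonists outside the 9 genes are not in the sums. Among them Bmper had mean levels of 199.7, 68.4 and 156 CPM in CD26- cells of control, WB1P and WB1P-Myc mice. In CD26+ cells the means were 173, 323.4 and 323.7 CPM.

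**Figure D3:**
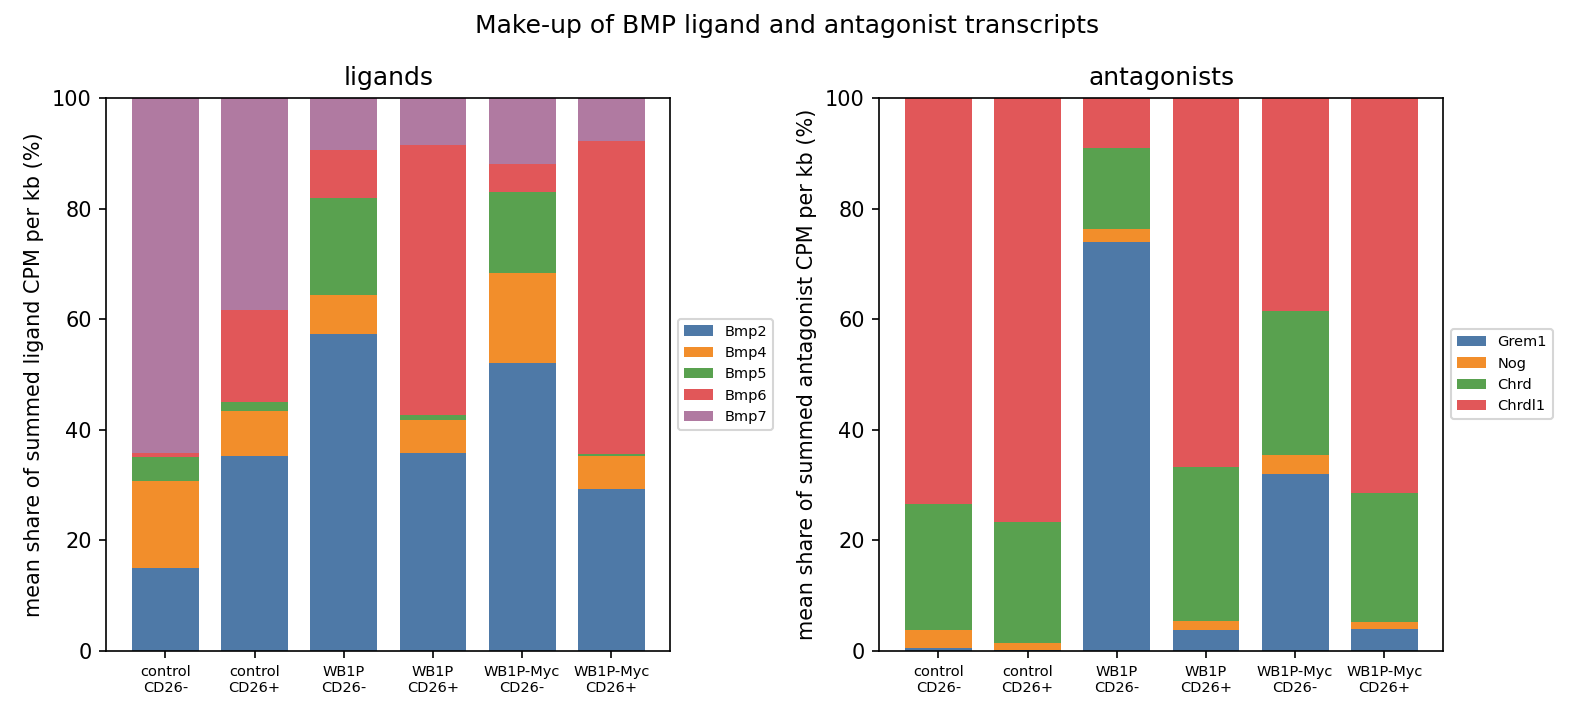
Mean share (%) of each gene in the summed CPM per kb of the 5 ligands (left) and 4 antagonists (right), for the 6 groups on the x axis. Bmp7 has the largest mean ligand share in both NF groups (in CD26+ NFs 38.4%, beside 35.2% for Bmp2), and Grem1 is the largest antagonist share in WB1P CD26- CAFs (73.9%).

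The second question was how CD26+ and CD26- fibroblasts of the same glands or tumors differ. In control mice 1 of 9 genes was higher in CD26+ cells (background 2.67%) and 0 were lower (1.49%). At an unadjusted p under 0.05, 2 were higher and 1 lower, beside 2349 of all 16601 genes in either direction. DESeq2 called 1 lower, and its share of all genes is not given here. In WB1P mice 4 were higher (background 13%) and 2 lower (13%), and in WB1P-Myc mice 3 were higher (9.29%) and 2 lower (10.7%). Both CD26 classes came from the same mice, so the fit was repeated with mouse as a block. It called 3 genes in control mice (background 11.5%), 8 in WB1P mice (35.1%) and 5 in WB1P-Myc mice (32.2%), either direction. With the block, members' shares were above the background in each model, and no test was made of that difference. The genes were chosen with earlier results of these data known, so nothing is read from it.

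Bmp6 showed the largest and steadiest difference. In control mice it had 0.762, 0.694 and 1.38 CPM in CD26- and 26.6, 32.6 and 18.2 CPM in CD26+ NFs. CD26- CAFs had 1.48 to 2.32 CPM in WB1P and 0.792 to 4.20 CPM in WB1P-Myc mice, and CD26+ CAFs had 28.0 to 62.5 and 23.6 to 71.3 CPM. The classes did not overlap in any model, and CD26+ was higher in all 12 mice with both classes. The fold changes were 4.76 (SE 0.53, FDR 6.44e-06) in control, 4.57 (SE 0.41, FDR 1.04e-07) in WB1P and 4.71 (SE 0.40, FDR 6.38e-08) in WB1P-Myc mice. Txndc5, which overlaps Bmp6 on the other strand, had 454 to 787 CPM in CD26- and 407 to 790 CPM in CD26+ NFs, so that its level did not separate the classes of NFs. In CAFs it did, with 526.4 to 592.8 CPM in CD26- and 764 to 891 CPM in CD26+ cells of WB1P mice and 361 to 602 and 684 to 940 CPM in WB1P-Myc mice, and its part in the Bmp6 counts was not tested.

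Grem1 was lower in CD26+ than CD26- cells of all 12 mice. The fold change was -4.28 (SE 0.78, FDR 0.000339) in WB1P mice, where the classes did not overlap. It was -2.52 (SE 0.67, FDR 0.00866) in WB1P-Myc mice, where the 2 highest CD26+ values (8.18 and 9.07 CPM) exceeded the 2 lowest CD26- values. With only the WB1P-Myc groups in the fit the FDR was 0.0626. In control mice 41 counts in CD26- and 4 in CD26+ NFs gave a ratio of 9.96 (exact 95% counting interval 3.61 to 38.3), with an FDR of 0.374, and 0.00979 with mouse as a block.

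Bmp5 was lower in CD26+ cells of all 12 mice as well. The classes did not overlap in WB1P mice (fold change -2.46, SE 0.63, FDR 0.00591) or in WB1P-Myc mice (-4.11, SE 0.63, FDR 5.1e-05). In control mice they overlapped, and Bmp5 was not called with the mouse block (FDR 0.389) or without it (0.705).

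**Figure D4:**
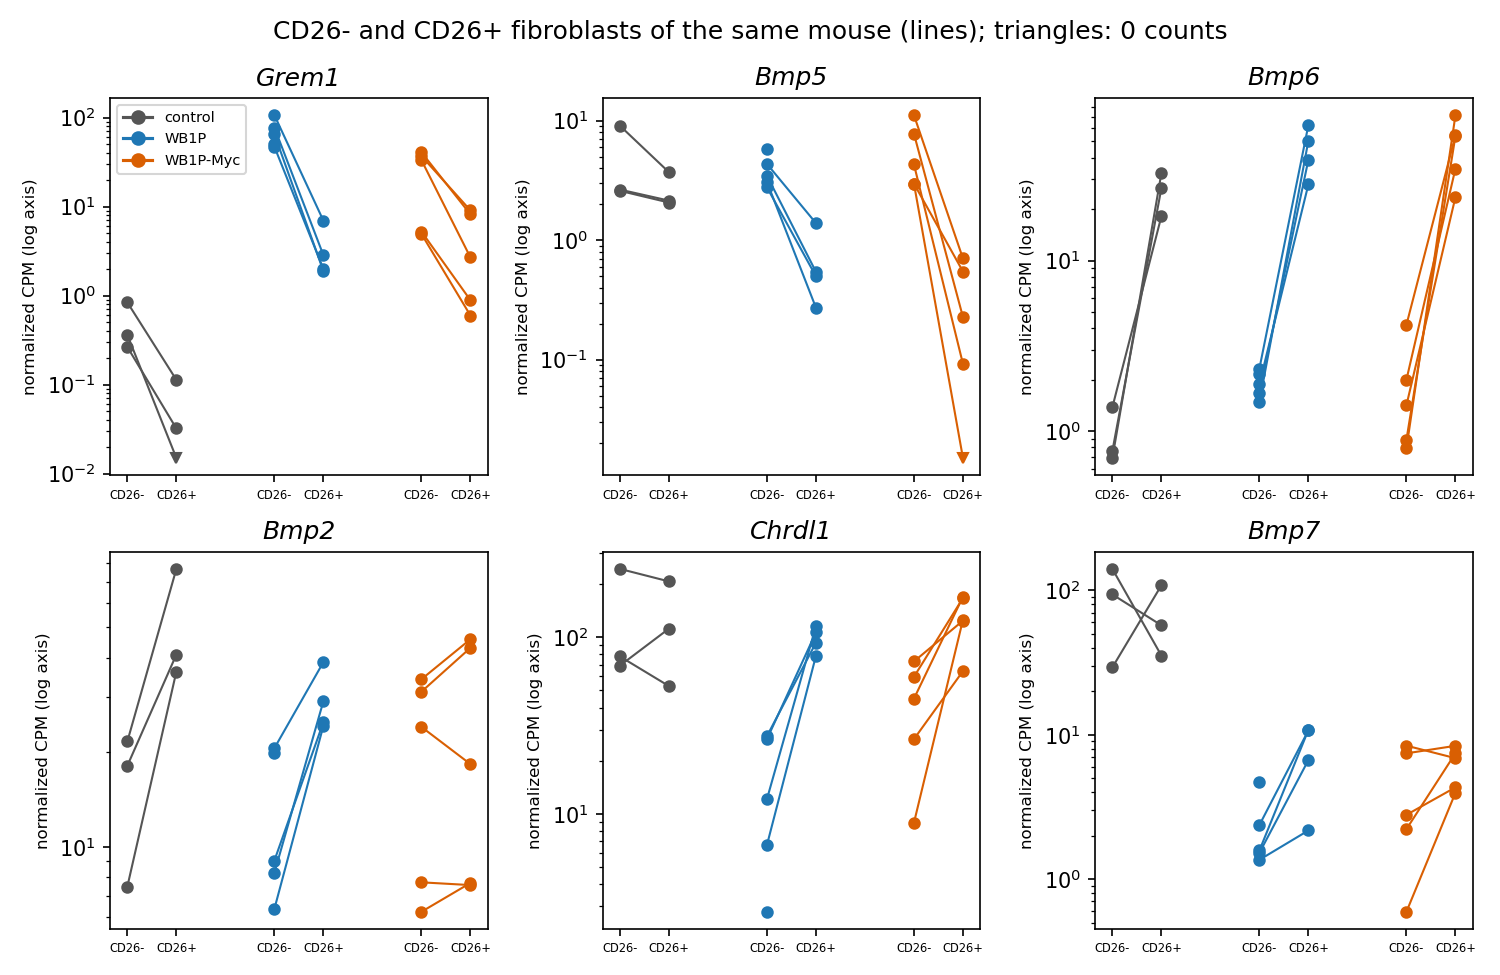
Normalized CPM (log axis) of 6 genes in the CD26- and CD26+ cells of each mouse, joined by a line, for control, WB1P and WB1P-Myc mice; triangles at the lower edge stand for 0 counts, and WB1P mouse 10 has a CD26- point only. All 12 lines fall for Grem1 and Bmp5 and rise for Bmp6, and those of Bmp2 rise in the 3 control and 4 WB1P mice but in only 3 of 5 WB1P-Myc mice.

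Chrdl1 was higher in CD26+ CAFs of all 9 tumor mice with both classes, and in 1 of 3 control mice. In WB1P mice the CD26+ sums had 78.4, 116, 106.5 and 93.2 CPM in mice 12, 14, 35 and 93, far above the CD26- sums given before, with a fold change of 2.70 (SE 0.59, FDR 0.00169). In WB1P-Myc mice it was 1.62 (SE 0.55, FDR 0.04). That call was lost without mouse 21 (FDR 0.138), 23 (0.128), 67 (0.072) or 69 (0.0729) and without both mice labelled 8x8 (0.244). The FDR with the mouse block was 0.00284.

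Chrd differed less but in the same direction in all 9 tumor mice. The fold change was 0.93 (SE 0.24, FDR 0.0069) in WB1P mice, where the CD26+ range of 33.9 to 41.8 CPM lay above the CD26- range of 11.6 to 23.1 CPM. It was 0.77 (SE 0.23, FDR 0.02) in WB1P-Myc mice, and this call was lost without mouse 21 (FDR 0.0915), 67 (0.0818) or 95 (0.0605) and with only the groups compared in the fit (0.0629). Thpo, which overlaps Chrd on the other strand, was at 1.89 CPM or less in every sum.

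Bmp7 was higher in CD26+ than CD26- cells of all 4 WB1P mice with both classes, with 2.17, 10.8, 10.7 and 6.67 CPM in the CD26+ cells of mice 12, 14, 35 and 93. The fold change was 1.81 (SE 0.60, FDR 0.0277), and the call was lost without mouse 14 (FDR 0.139), 35 (0.107) or 93 (0.0709). In control mice Bmp7 was higher in CD26+ cells of 1 of 3 mice, and in WB1P-Myc mice of 4 of 5, with FDRs of 0.918 and 0.551.

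With all groups and mice in the fit and no mouse block, edgeR called neither Bmp2 nor Bmp4. With the block it called Bmp2 in 2 models and Bmp4 in 1. Bmp2 had 7.49, 21.7 and 18.1 CPM in CD26- and 36.2, 76.8 and 41.0 CPM in CD26+ NFs of control 44/46, 49/52 and 82/83. In WB1P mice 12, 14, 35 and 93 it had 8.28, 6.36, 9.06 and 20.6 CPM in CD26- and 29.1, 24.3, 25.0 and 38.8 CPM in CD26+ CAFs. CD26+ exceeded CD26- in every one of these mice. The fold changes were 1.70 (SE 0.69, FDR 0.222) in control and 1.20 (SE 0.56, FDR 0.119) in WB1P mice, and with the block 1.75 (FDR 0.000321) and 1.52 (FDR 0.000104). In WB1P-Myc mice Bmp2 was higher in CD26+ cells of 3 of 5 mice, with an FDR of 0.806, and 0.545 with the block. Bmp4 had a fold change of 1.68 (SE 0.66, FDR 0.0663) in WB1P mice and 1.44 (FDR 0.0261) with the block, and it was called without the block when mouse 35 was left out (FDR 0.0422). With only the WB1P groups in the fit both were called in WB1P mice (FDRs 0.034 for Bmp2 and 0.0377 for Bmp4). DESeq2 called Bmp4 in WB1P mice (adjusted p 0.0303). Limma-voom on single libraries called Bmp2 in control and WB1P mice (adjusted p 1.85e-06 and 1.21e-05) and Bmp4 in WB1P mice (0.016). Nog was lower in CD26+ cells of all 3 control mice, with FDRs of 0.271 without and 0.0553 with the block, and an adjusted p of 0.00113 in limma-voom.

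**Figure D5:**
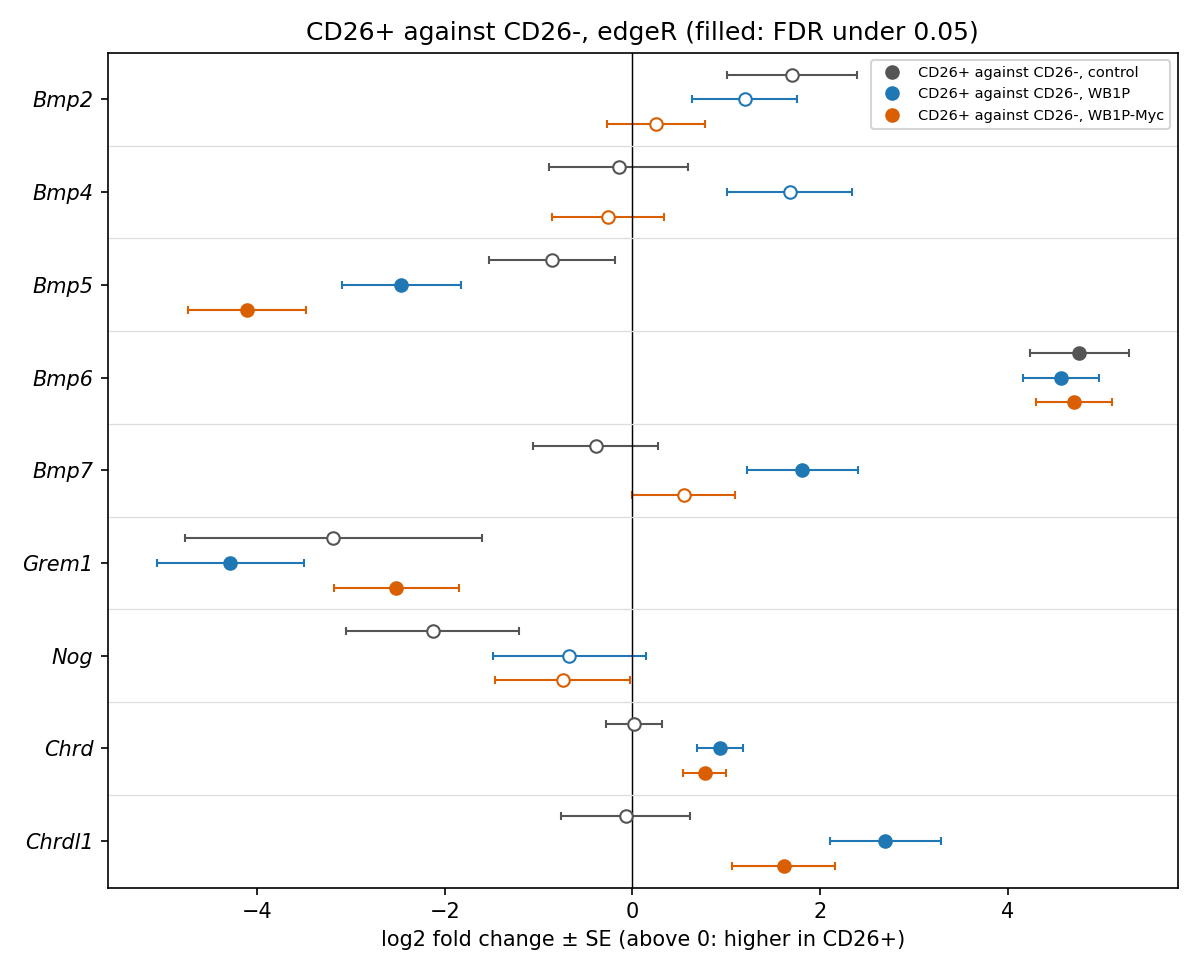
Log2 fold changes with SE (x axis) of CD26+ against CD26- cells for the 9 genes (y axis) in control, WB1P and WB1P-Myc mice, filled where the edgeR FDR without the mouse block is under 0.05. Bmp6 lies between 4.57 and 4.76 in the 3 models, and Bmp5 and Grem1 lie left of 0 in all of them.

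The third question was whether the tumor effect itself differed between CD26+ and CD26- cells. Without the block 0 of 9 genes were called in WB1P mice (background 1.86%) and 0 in WB1P-Myc mice (1.16%). At an unadjusted p under 0.05 these were 3 and 1 genes, beside 2233 and 1611 of all 16601 genes tested. DESeq2 called 1 and 1, and limma-voom on single libraries called 6 and 4. The shares of all genes called by DESeq2 and limma-voom are not given here, so nothing is read from those counts. With mouse as a block, 1 gene was called in WB1P mice (background 5.13%) and 2 in WB1P-Myc mice (3.15%). Chrdl1 had a difference of tumor effects of 2.77 (SE 0.91, FDR 0.137) in WB1P mice and of 2.65 (FDR 0.0304) with the block, from tumor effects of -0.33 (not called) in CD26+ and -3.10 in CD26- cells. Bmp5 had -3.26 (SE 0.91, FDR 0.0906) in WB1P-Myc mice and -3.48 (FDR 0.0072) with the block, from tumor effects of -2.98 in CD26+ and 0.28 (not called) in CD26- cells. Bmp2 had -1.45 (SE 0.86, FDR 0.665) in WB1P-Myc mice and -1.59 (FDR 0.00917) with the block. For Grem1 and Bmp6 the FDRs with the block were 0.538 or higher in both models. Bmp7 had a difference of 2.205 (SE 0.90, FDR 0.259) in WB1P mice and 2.43 (FDR 0.135) with the block, and it was called there by limma-voom alone (2.36, adjusted p 0.0153).

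WB1P-Myc and WB1P CAFs were then compared, to ask what Myc in the tumor cells goes along with in the stroma. In edgeR 0 of 9 genes were called in CD26- cells (background 0.512%) and 0 in CD26+ cells (background 0%). At an unadjusted p under 0.05 there were 3 genes in CD26- cells (Bmp4 and Chrdl1 higher, Grem1 lower in WB1P-Myc CAFs) and 0 in CD26+ cells. Of all 16601 genes tested, 2405 in CD26- and 646 in CD26+ cells were under this limit. The fold changes in CD26- cells were 1.94 (SE 0.63, FDR 0.154) for Bmp4, 1.48 (SE 0.55, FDR 0.218) for Chrdl1 and -1.51 (SE 0.62, FDR 0.263) for Grem1. DESeq2 called 1 gene in CD26- cells, Bmp4 (adjusted p 0.0473), and so did edgeR without WB1P-Myc mouse 23 (FDR 0.049). Limma-voom on single libraries called Grem1 there (adjusted p 0.00542). The Grem1 ranges of CD26- cells did not overlap (47.2 to 107 CPM in WB1P and 4.94 to 40.8 CPM in WB1P-Myc mice). In CD26+ cells the FDRs of all 9 genes were 1.

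The En1 lineage made no called difference to the 9 genes, in a test that did not call En1 itself without the mouse block. Libraries of the same CD26 class were compared, En1+ (GFP-positive) against GFP-negative. In edgeR 0 of the 9 genes were called in CD26- (background 0.00642%) and 0 in CD26+ cells (background 0.0128%). En1 had fold changes of 0.95 (SE 0.26, FDR 0.395) in CD26- and 0.87 (SE 0.27, not called) in CD26+ cells. It was called with the mouse block (edgeR FDRs 0.000116 and 0.000489). The lack of calls without the block therefore does not show that the lineage makes no difference. At an unadjusted p under 0.05 there was 1 of the 9 genes in each, Chrdl1 in CD26- and Bmp5 in CD26+ cells, both lower in the GFP-positive libraries. Of all 15584 genes tested, 537 in CD26- and 280 in CD26+ cells were under this limit. With the mouse block the counts of members were 4 and 1, all lower in the GFP-positive libraries, and 0 were called. The count of all genes under this limit with the block is not given here, so nothing is read from the 4. The 2 libraries of a CD26 class from 1 mouse formed 19 pairs. Bmp5 was higher in the GFP-positive library of 3 pairs and Bmp2 of 5, and the median absolute log2 ratio between partners ranged from 0.204 for Chrd to 0.666 for Nog.

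The genes most like each member were taken as the 2 with the highest Pearson correlation of log2 CPM over the 25 sums, which share mice and groups. Bmp6 was followed by Krtdap (r = 0.972) and Duox1 (0.970), Grem1 by Arxes2 (0.940) and Glipr1 (0.930), and Chrdl1 by Clec3b and Ces2g (both 0.929). Bmp7 was followed by Kcnn3 (0.926) and Calcrl (0.900), Bmp5 by Mxd1 (0.909) and Slc2a4 (0.891), and Bmp4 by Amy1 (0.900) and Vit (0.891). Lower values were reached by Bmp2 with Arl4a (0.851) and Optn (0.824), Chrd with Entpd5 (0.839) and Sgpp1 (0.837), and Nog with Larp7 (0.764) and Tpm3 (0.760).

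Other genes of the pathway were counted by lists. All lists are read against the shares of all genes called, which against NFs were 16.1% to 19.1% in each direction, and many of the counts are near them. Of 10 other BMP and GDF ligands 6 were tested. Bmp3, an atypical ligand that opposes osteogenic BMPs, had 3.25 to 4.10 CPM in CD26- and 17.5 to 72.8 CPM in CD26+ NFs, and like Bmp8a it was higher in CD26+ cells of all 3 models (Bmp3 fold changes 3.64, 4.09 and 4.37, FDRs 0.00543, 3.75e-05 and 1.73e-05). Against NFs 2 of the 6 were higher in all 4 comparisons, Bmp15 and Gdf6 (Gdf6 by 2.41 to 3.06). Bmp15 was at the floor in NFs, with 0 to 2 counts per sum in CD26- and 0 in CD26+ cells. It had 0 to 3 counts per sum in WB1P CD26+ CAFs and at most 0.775 CPM in any CAF sum. Those lower were Gdf2 and Gdf10 in WB1P CD26- CAFs and Gdf2 in both CD26 classes of WB1P-Myc CAFs, with no ligand of the list called lower in WB1P CD26+ CAFs.

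Of 19 other antagonists and extracellular modulators 15 were tested. In WB1P CAFs against NFs 4 were higher and 4 lower in CD26- cells and 4 higher and 1 lower in CD26+ cells, and in WB1P-Myc CAFs 3 were higher and 3 lower in CD26- and 3 higher and 2 lower in CD26+ cells. Bmp1, the protease that cleaves chordin, and Fstl1, a follistatin-like secreted protein, rose in all 4. Bmp1 had 485 to 515 CPM in CD26- NFs, 1212 to 1656 CPM in WB1P and 889 to 1338 CPM in WB1P-Myc CD26- CAFs, with fold changes of 1.51 (SE 0.17, FDR 9.2e-07) and 1.17 (SE 0.17, FDR 2.4e-05).

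Of 12 receptors and co-receptors 11 were tested. In CD26- CAFs 3 were higher and 4 lower in WB1P and 2 higher and 2 lower in WB1P-Myc mice, and in CD26+ CAFs 3 were higher and 3 lower in each model. Bmpr1b, a type I receptor, had 0.530 to 0.978 CPM in CD26- NFs, 9.61 to 26.0 CPM in WB1P and 4.39 to 11.8 CPM in WB1P-Myc CD26- CAFs. Its fold changes were 4.50 (SE 0.58, FDR 4.95e-06) and 3.36 (SE 0.55, FDR 9.24e-05), and it was higher in CD26+ CAFs too (4.00 and 3.38, FDRs 7.23e-05 and 0.000267). The co-receptor Eng was higher and the co-receptors Rgma and Rgmb were lower in all 4 comparisons.

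The last lists were the 4 signal transducers and the 12 targets and feedback inhibitors. Of the transducers Smad9 was lower in CD26- CAFs of both models (FDRs 0.015 and 0.0405) and no other was called. Of 11 targets tested, those called in the 4 comparisons with NFs were all lower, namely Smad9 in both models and Bambi in WB1P CD26- CAFs. Between CD26 classes of CAFs, Id1, Id4, Msx1 and Hey1 were lower in CD26+ cells of both models, 4 of 11 targets against a background of 13% in WB1P and 10.7% in WB1P-Myc mice. Smad7, an inhibitory SMAD, was higher in CD26+ cells of WB1P-Myc mice (0.75, SE 0.24, FDR 0.0311), and no target was called higher in WB1P mice. Id1 had fold changes of -1.77 (SE 0.55, FDR 0.0204) in WB1P and -1.63 (SE 0.50, FDR 0.0214) in WB1P-Myc mice, while Id2 and Id3 were not called in either. In control mice the FDRs of these 4 genes lay between 0.625 and 0.755. The pericyte markers were lower in the CD26+ CAFs as well (5 of 7 called in WB1P and 7 of 7 in WB1P-Myc mice), and their part in these differences was not tested.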

How the data were processed

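Polyadenylated RNA of sorted mouse fibroblasts was sequenced from stranded libraries, paired-end. The authors deposited counts of reads per gene, not normalized. The submitters' processing notes name HISAT2 2.2.1 and GRCm38. The counting program, its use of strand and the annotation are not given in the sources used here, and positions in the table were checked against GENCODE M21. Each of the 44 count columns carries the name of 1 sample. Of 55487 lines, 1 without a gene name (0 counts) was left out.

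The genes and lists were chosen with earlier results of these data known. Counts were summed per mouse and CD26 class (25 sums, 6 groups) and analysed in R 4.3.3 with edgeR 4.0.16 (filterByExpr, TMM, glmQLFit and glmQLFTest), with the Benjamini-Hochberg FDR over 16601 genes and 0.05 as the threshold. En1 comparisons used single libraries in 12 groups (15584 genes). SEs were taken from the F statistic. Likeness used log2 CPM with a prior count of 2, computed in Python 3.11.15. Named genes were the 9 members and, from fixed pathway lists, genes that passed the test or were needed to describe a count. Libraries held 5790599 to 15240328 counts, and a gene at 3 counts or fewer per sum was treated as at the floor. Control labels with a pair of mouse numbers were counted as 1 mouse, and p-values measure the spread between mice or pools. No library repeated another (63 pairs within groups compared). Mouse numbers in the labels pair the CD26 classes, whose deviations from group means correlated across genes with r from 0.237 to 0.668 (12 pairs). Alternatives were DESeq2 1.42.0 (size factors, and its Wald test), no low-count filter, only the groups compared, mouse as a block, limma 3.58.1 voom on single libraries with mouse as a random effect, leaving out the mice labelled 8x8, and leaving out each mouse. The fits were tested on simulated counts. Some items, among them part of the control donor genotype, are not reported here.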

Additional observations from a re-analysis of the deposited data

Results flagged for a closer look

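In WB1P CD26+ CAFs, Nog had 1.45 CPM in mouse 12 and 0.249 to 0.272 CPM in the other 3 mice, so that mouse 12 stood far from the rest of its group. The values rest on 5 to 8 counts per sum. The sum of mouse 12 is 1 library of 5790599 counts, against 25742727 to 28310142 counts in the other 3 sums. Of 36 groups of 4 or 5 sums examined this was the 1 with such a gap. Chance gives about 1 in 20, or 1.8 of the 36.

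Genes whose tumor effect differed between CD26 classes were found with mouse as a block. The differences (CD26+ minus CD26-) were 2.65 for Chrdl1 in WB1P mice, -1.59 for Bmp2 in WB1P-Myc mice and -3.48 for Bmp5 in WB1P-Myc mice. Without the block their edgeR FDRs were 0.137, 0.665 and 0.0906. DESeq2 called Chrdl1 and Bmp5 (adjusted p 0.0464 and 0.0112), and limma-voom on single libraries called all 3.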

How the results depend on the processing

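The number of members called changed by over 1.5 times under some settings. With the replicate block it went from 1 to 3 for CD26+ against CD26- in control mice, and from 0 to 1 and 0 to 2 for the difference of tumor effects in WB1P and WB1P-Myc mice, while no other call changed by the pairing except those of Bmp2 and Bmp4 between CD26 classes of WB1P mice. DESeq2's Wald test gave 2 for the CD26 classes of control mice, 1 for WB1P-Myc against WB1P in CD26- cells, and 1 and 1 for the differences of tumor effects. Single libraries with limma-voom gave 5 for WB1P-Myc against control in CD26+ cells, 1 for WB1P-Myc against WB1P in CD26- cells, 3 for the CD26 classes of control mice, and 6 and 4 for the differences of tumor effects. Only the groups compared gave 3 for the CD26 classes of WB1P-Myc mice. Leaving out 1 mouse gave 0 to 1 for WB1P-Myc against WB1P in CD26- cells and 3 to 5 for the CD26 classes of WB1P-Myc mice. The cause of these moves was not tested. Except for the replicate block, the shares of all genes called under these settings are not given here, so nothing is read from the counts. Of 51 single-gene fold changes called in at least 1 setting, 652 alternative values were computed. None changed sign, 25 lost and 47 gained the call. Depth limits Nog, Bmp5 in CD26+ CAFs and Grem1 in NFs, which rest on few counts.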
